A study of Homo sapiens with 12 samples.

Results

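The transcripts of 10 genes of the MYC, MAX and MXD network were followed across 6 groups of cultured liver cancer cells. The members were chosen by name, as the rows of the deposited gene tables whose gene name is MYC, MYCN, MYCL, MAX, MXD1, MXD3, MXD4, MNT, MLX or MGA, and they are 10 of 58735 genes in all. All 10 were found, and all 10 passed the filter on low counts, MYCN only through the Huh7 libraries. Poly-A RNA was sequenced from 2 established human lines, Huh7 and HLF, both labelled wild-type hepatocellular carcinoma lines and both grown in DMEM with fetal bovine serum and antibiotics. Each line was grown in 3 cultures with 2 biological replicates, which gave 12 libraries. The 2D cells were harvested on day 2 near confluence. In Inject-Embed culture, 4000 Huh7 or 2000 HLF cells per well were injected into gelled Matrigel, a basement membrane extract, and in Mix-Embed culture, 20000 Huh7 or 10000 HLF cells per well were mixed into it. Both 3D cultures were harvested between day 6 and day 8, so that culture, seeding number and days in culture differ together and cannot be told apart. Each line is 1 line, so a difference between Huh7 and HLF is a difference between those lines only.

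MYC, MYCN and MYCL are basic helix-loop-helix leucine zipper proteins that pair with MAX, bind E-box sequences in DNA, most strongly CACGTG, and raise transcription of genes for growth, ribosome production and metabolism. The MXD proteins and MNT pair with the same MAX, bind the same sequences and recruit the SIN3 and histone deacetylase repressors, so that both arms compete for a shared partner and shared sites. MLX is a second partner, which serves some MXD proteins and MNT as well as the glucose-responsive factors MondoA and ChREBP, and MGA is a very large MAX partner that belongs to the repressive complex PRC1.6. In liver, MYC is known for its rise during regeneration and in tumours.

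E-boxes stand in the promoters of some of the members themselves. The sequence CACGTG, which reads the same on both strands, was looked for in RefSeq promoter windows of 300 bases (GRCh38.p14) that run from 250 bases before to 50 bases after a start site. It was present in 7.3% of all 35116 windows, in 11.9% of the 12834 tested genes with a window, and in 3 of the 9 members with a window, MXD4, MNT and MLX. MYC was not matched to a window. Of 34 genes listed as activated by MYC, 30 had a window and 16 of those held the sequence. The stretches below are shown because they put the 3 members beside genes of that list that moved in opposite directions in the 2 lines. Each runs 5′ to 3′ on the strand of its gene, with CACGTG in capitals. A match is a description of these letters and does not show that a protein binds there.
MXD4 (chr4:2262330-2262359, minus strand): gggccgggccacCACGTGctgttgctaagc
MNT (chr17:2401236-2401265, minus strand): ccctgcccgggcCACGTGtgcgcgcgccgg
MLX (chr17:42567038-42567067, plus strand): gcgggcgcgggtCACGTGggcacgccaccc
HSPE1 (chr2:197500345-197500374, plus strand): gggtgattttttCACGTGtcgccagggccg
HSPD1 (chr2:197500345-197500374, minus strand): cggccctggcgaCACGTGaaaaaatcaccc
SLC7A5 (chr16:87869620-87869649, minus strand): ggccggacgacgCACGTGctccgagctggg
The first base of the motif lay 238 bases before the RefSeq start site for MXD4, 193 before it for MNT, 50 for MLX, 22 for HSPE1, 88 for HSPD1 and 130 for SLC7A5. In NME1, another listed gene that moved in opposite directions, the motif lay after the start site and is not shown. AMD1, CAD, DKC1, NCL, NOP16, NOP56, NPM1, PA2G4 and POLR1B also moved in opposite directions in Inject-Embed, but no window of theirs held CACGTG. HSPE1 and HSPD1, which encode the mitochondrial chaperonin pair, are transcribed in opposite directions and share 1 such motif.

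Library totals ran from 12325877 to 16041906 counts, and replicates varied by 4.6% (the square root of the common dispersion). Levels are given in CPM, counts scaled to the library's size after TMM scaling, except between genes, where the deposited FPKM, which also divide by gene length, are used. The lineage check split the lines: 9 hepatocyte markers summed to between 46700 and 48700 CPM in Huh7 2D, 37400 and 38800 in Huh7 Inject-Embed and 45700 and 46300 in Huh7 Mix-Embed, and to between 32.4 and 169 CPM in HLF, where 3 of the 9 were above 3 counts in each culture and APOB and TTR were at 0. The share of counts from mitochondrial ribosomal RNA moved with culture in both lines, from 0.293 to 0.315% in 2D and from 0.468 to 0.597% in 3D, and the part of either in the results that follow was not tested. All p-values are from edgeR's quasi-likelihood test on counts, adjusted by the Benjamini-Hochberg method over the 19342 genes tested, and a gene is said to have risen or fallen where the adjusted p is under 0.05. Errors of log2 fold changes are standard errors.

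MYC moved in opposite directions in the 2 lines. It rose in Huh7 in both 3D cultures and fell in HLF in both. In Huh7 it stood at 91.1 and 100.0 CPM in 2D, at 190 and 183 in Inject-Embed and at 148 and 155 in Mix-Embed, and no library of one group overlapped another. The rise was 0.96 ± 0.06 on the log2 scale in Inject-Embed (adjusted p = 2.15e-17), which is 1.95-fold, and 0.66 ± 0.06 in Mix-Embed (adjusted p = 7.05e-12), and Inject-Embed was also above Mix-Embed, by 0.30 ± 0.06 (adjusted p = 9.35e-05). In HLF, MYC stood at 119 and 112 CPM in 2D, at 86.3 and 83.5 in Inject-Embed and at 87.2 and 91.1 in Mix-Embed. Both 3D groups lay below 2D, by 0.44 ± 0.06 (log2 fold change -0.44, adjusted p = 2.18e-07) and 0.37 ± 0.06 (log2 fold change -0.37, adjusted p = 3.17e-06), while the 3D groups themselves differed by -0.07 ± 0.06 (adjusted p = 0.592). In bulk RNA, fewer cells of a type and less RNA per cell cannot be told apart.

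The opposite movement changed the order of the lines. In 2D, MYC was lower in Huh7 than in HLF (log2 fold change -0.27 ± 0.06, adjusted p = 8.56e-05), whereas it was higher in Huh7 by 1.14 ± 0.06 in Inject-Embed (adjusted p = 2.51e-21) and by 0.77 ± 0.06 in Mix-Embed (adjusted p = 2.06e-15). The difference between the lines in the change itself, the Huh7 log2 fold change minus that of HLF, was 1.41 ± 0.08 for Inject-Embed against 2D (adjusted p = 2.02e-17) and 1.04 ± 0.09 for Mix-Embed against 2D (adjusted p = 4.27e-13). Comparisons of both 3D cultures with 2D use the same 2D libraries. Over all 6 groups the order of the MYC means was Huh7 Inject-Embed, Huh7 Mix-Embed, HLF 2D, Huh7 2D, HLF Mix-Embed and HLF Inject-Embed, and the replicates of neighbours in that order did not overlap, though the last 2 did not differ by the test.

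MYCN (chr2:15940564-15947007, plus strand), the family member best known from neuroblastoma, had more than 1 count in Huh7 libraries only. Huh7 libraries had 75.5 and 75.7 CPM in 2D, 47.1 and 42.8 in Inject-Embed and 68.0 and 71.4 in Mix-Embed. The 6 HLF libraries together held 1 count, in a Mix-Embed library. Against a floor of 3 counts over the HLF group, MYCN was at least 807-fold higher in Huh7 in 2D and at least 471-fold higher in Inject-Embed, and the ratio in Mix-Embed was 2190 (95% counting interval 393 to 86600, counting error only). Within Huh7, MYCN took the opposite course to MYC in Inject-Embed, where it fell against 2D (log2 fold change -0.75 ± 0.09, adjusted p = 1.59e-08) and against Mix-Embed (-0.63 ± 0.09, adjusted p = 1.17e-06). In Mix-Embed it differed from 2D by -0.12 ± 0.09 (adjusted p = 0.399). The antisense gene MYCNOS, which overlaps MYCN, had at most 39 counts in a library, against at most 1133 for MYCN. The strand setting of the counting is not given in the sources used here, so reads of overlapping genes cannot be told apart.

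MYCL (chr1:39895426-39902256, minus strand), which is best known from small cell lung cancer, was close to the limit of detection. It had 43 and 51 counts (2.87 and 3.43 CPM) in Huh7 2D, 1.29 and 2.13 CPM in Inject-Embed and 3.13 and 2.18 CPM in Mix-Embed, and Inject-Embed lay below the others without overlap. The difference from 2D was -0.89 ± 0.41 (adjusted p = 0.0942, and 0.0495 when Huh7 was fitted alone). In HLF it went from 12 and 22 counts in 2D to 12 and 4 in Inject-Embed and 4 and 2 in Mix-Embed. The fall in HLF Mix-Embed passed the test (log2 fold change -2.42 ± 0.66, adjusted p = 0.00358), but not without HLF 2D replicate 2 (adjusted p = 0.091) or HLF Mix-Embed replicate 2 (adjusted p = 0.0802), nor by limma on log2(FPKM + 1) (adjusted p = 0.11).

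**Figure D1:**
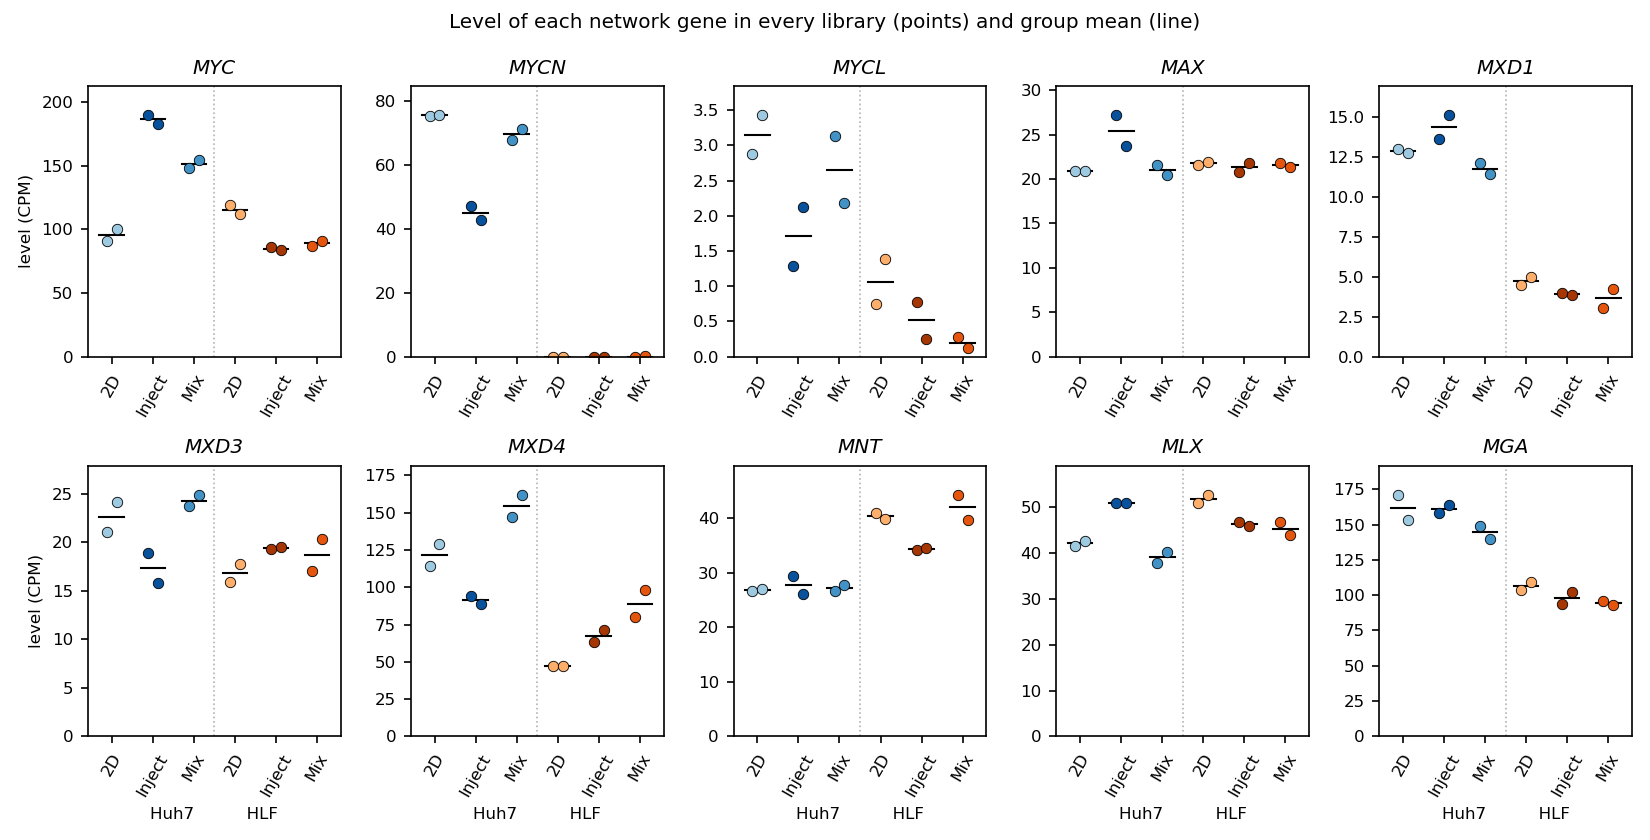
Level of each of the 10 genes in CPM (vertical axes, each starting at 0) in the 12 libraries, with Huh7 cultures to the left and HLF cultures to the right of the dotted line. Each point is a library and each line the mean of 2 replicates: MYC rises from 2D in Huh7 and falls in HLF, MYCN is near 0 in HLF, and MAX stays between 20.5 and 27.2 CPM in every library.

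MAX (chr14:65006174-65102695, minus strand), the partner that MYC, MXD proteins, MNT and MGA share, was nearly level. Its 12 libraries lay between 20.5 and 27.2 CPM. The highest were the Huh7 Inject-Embed libraries, at 27.2 and 23.7 CPM against 20.9 and 20.9 in 2D, a difference of 0.29 ± 0.11 that missed the threshold (adjusted p = 0.055). Without Huh7 Inject-Embed replicate 2 it was 0.39 and passed (adjusted p = 0.0344), and it passed in 11 of 21 alternative fits. Huh7 Inject-Embed differed from Huh7 Mix-Embed by 0.28 ± 0.12 (adjusted p = 0.0803). In HLF, MAX differed from 2D by -0.03 ± 0.11 in Inject-Embed and -0.02 ± 0.11 in Mix-Embed, with 95% intervals from -0.26 to 0.19 and from -0.24 to 0.20. Between the lines, MAX was called only in Inject-Embed, where Huh7 was higher by 0.26 ± 0.11 (adjusted p = 0.0343, called in 13 of 20 alternative fits). FNTB, a protein-coding gene on the opposite strand that overlaps MAX, had 42 to 89 counts, against 263 to 360 for MAX.

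MLX (chr17:42567068-42573239, plus strand), the partner that brings MondoA and ChREBP to DNA, passed the test in 1 of its 4 comparisons with 2D, as a rise in Huh7 Inject-Embed. It stood at 41.6 and 42.7 CPM in Huh7 2D, 50.9 and 51.0 in Inject-Embed and 37.9 and 40.3 in Mix-Embed, and the Inject-Embed libraries were above all 4 others. The rise against 2D was 0.27 ± 0.08 (adjusted p = 0.00779, and 0.0554 without Huh7 2D replicate 1), and that against Mix-Embed was 0.38 ± 0.08 (adjusted p = 0.00043). HLF libraries had 51.0 and 52.7 CPM in 2D, 46.8 and 45.8 in Inject-Embed and 46.7 and 44.0 in Mix-Embed. Both HLF 3D groups lay below 2D without overlap, by differences that did not pass (-0.16 ± 0.08, adjusted p = 0.159, and -0.19 ± 0.08, adjusted p = 0.0571). The change from 2D to Inject-Embed differed between the lines by 0.44 ± 0.11 (adjusted p = 0.00271). PSMC3IP, which overlaps MLX on the opposite strand, had 156 to 308 counts, against 518 to 837 for MLX.

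MXD4 (chr4:2247432-2262294, minus strand), a repressor linked to the exit from division, was the most abundant of the MXD genes and MNT, and it changed in every comparison of cultures. In Huh7 it stood at 114 and 129 CPM in 2D, 94.2 and 88.5 in Inject-Embed and 147 and 162 in Mix-Embed, 3 groups that did not overlap. It fell in Inject-Embed (log2 fold change -0.41 ± 0.08, adjusted p = 3.2e-05) and rose in Mix-Embed (0.35 ± 0.07, adjusted p = 0.00023, though 0.0535 and 0.0637 by limma on log2(FPKM + 1) and log2(FPKM + 0.1)), so that Inject-Embed was below Mix-Embed by 1.69-fold (log2 fold change -0.76 ± 0.07, adjusted p = 6.73e-11). In HLF it rose in both, from 47.0 and 47.5 CPM in 2D to 63.1 and 71.7 in Inject-Embed and 80.1 and 98.0 in Mix-Embed, again with no overlap. The rises were 0.51 ± 0.08 (adjusted p = 5.25e-06) and 0.92 ± 0.08 (adjusted p = 1.05e-12). HLF Inject-Embed was below HLF Mix-Embed by -0.41 ± 0.08 (adjusted p = 0.000248), a call that was lost without HLF Mix-Embed replicate 2 (-0.25, adjusted p = 0.11) and by limma (0.0633 and 0.0779).

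The 2 lines therefore differed in how MXD4 changed. The difference between the lines was -0.92 ± 0.11 for Inject-Embed against 2D (adjusted p = 1.07e-08) and -0.57 ± 0.11 for Mix-Embed against 2D (adjusted p = 7.53e-05). MXD4 was higher in Huh7 than in HLF in each culture, by 1.36 ± 0.08 in 2D, 0.44 ± 0.08 in Inject-Embed and 0.79 ± 0.07 in Mix-Embed. The Huh7 Inject-Embed mean, 91.4 CPM, was nevertheless beside the HLF Mix-Embed mean of 89.1 CPM, and the replicates of those groups overlapped.

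MXD1 (chr2:69897688-69942945, plus strand), the founding member of the repressor family, separated the lines rather than the cultures. Huh7 libraries lay between 11.4 and 15.1 CPM and HLF libraries between 3.07 and 4.98 CPM, with no overlap. Huh7 was higher by 1.44 ± 0.18 in 2D (adjusted p = 8.93e-10), 1.88 ± 0.18 in Inject-Embed (adjusted p = 1.83e-12) and 1.68 ± 0.19 in Mix-Embed (adjusted p = 8.95e-11). No comparison of cultures called MXD1, and adjusted p-values within the lines ran from 0.212 to 0.911. SNRNP27, which overlaps MXD1 on the same strand, had 200 to 366 counts, against 45 to 195 for MXD1.

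MXD3 (chr5:177301461-177312757, minus strand), a repressor whose transcript is linked to the S phase of dividing cells, fell in Huh7 Inject-Embed. It stood there at 18.9 and 15.8 CPM, against 21.1 and 24.2 in 2D and 23.7 and 24.9 in Mix-Embed. The difference was -0.38 ± 0.13 from 2D (adjusted p = 0.0208) and -0.48 ± 0.13 from Mix-Embed (adjusted p = 0.0043), and both calls were lost without Huh7 Inject-Embed replicate 2 (adjusted p = 0.266 and 0.116). The call against 2D was also lost without Huh7 2D replicate 2 (adjusted p = 0.207) and by both limma fits (0.0692 and 0.0712), and that against Mix-Embed without Huh7 Mix-Embed replicate 2 (adjusted p = 0.0514). In HLF the 6 libraries lay between 15.9 and 20.3 CPM and no comparison of cultures passed. MXD3 overlaps PRELID1, on the opposite strand and with 1260 to 2227 counts, and RAB24, on the same strand, so its 186 to 359 counts are uncertain.

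MNT (chr17:2384060-2401118, minus strand), the broadly expressed repressor of the network, was the one member of this arm that was higher in HLF in every culture. Huh7 libraries had 26.1 to 29.5 CPM in the 3 cultures, and no comparison of cultures in Huh7 passed (log2 fold changes of 0.02 to 0.05). HLF libraries had 40.9 and 39.9 CPM in 2D, 34.1 and 34.6 in Inject-Embed and 44.3 and 39.7 in Mix-Embed. Inject-Embed was the lowest HLF group without overlap, but the test gave -0.23 ± 0.09 against 2D (adjusted p = 0.075) and -0.29 ± 0.09 against Mix-Embed (adjusted p = 0.042). The second call was lost by DESeq2 (0.0804), limma (0.0816 and 0.109) and with no filter (0.0861), in each fit without an HLF Inject-Embed replicate (adjusted p = 0.206 and 0.163), without HLF Mix-Embed replicate 1 (0.318), without HLF 2D replicate 1 (0.0569) and without either Huh7 Mix-Embed replicate (0.0509 and 0.052). Huh7 was below HLF by -0.59 ± 0.10 in 2D, -0.30 ± 0.10 in Inject-Embed and -0.62 ± 0.10 in Mix-Embed, and the Inject-Embed value was -0.22 without Huh7 Inject-Embed replicate 2 (adjusted p = 0.1).

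MGA (chr15:41621224-41773081, plus strand), the scaffold that joins MAX to PRC1.6, was the member with the longest gene model and held 1399 to 2567 counts. Huh7 libraries had 171 and 153 CPM in 2D, 158 and 164 in Inject-Embed and 149 and 140 in Mix-Embed, and HLF libraries had 104 and 109, 93.9 and 102, and 95.6 and 92.9 CPM in the same order. Every Huh7 library was above every HLF library, by 0.61 ± 0.06 in 2D, 0.71 ± 0.06 in Inject-Embed and 0.62 ± 0.06 in Mix-Embed. Mix-Embed was slightly below 2D in both lines (-0.17 ± 0.06, adjusted p = 0.0391 in Huh7, and -0.18 ± 0.06, adjusted p = 0.0281 in HLF). Each of these calls was lost by both limma fits (adjusted p from 0.136 to 0.327), in Huh7 with no filter (0.0533) and in HLF under library totals alone (-0.12, adjusted p = 0.176). They were also lost when a single library was left out: in Huh7 without 2D replicate 1 (-0.09, adjusted p = 0.477) or either Mix-Embed replicate (0.0562 and 0.311), and in HLF without 2D replicate 2 (0.281) or either Mix-Embed replicate (0.0879 and 0.194).

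**Figure D2:**
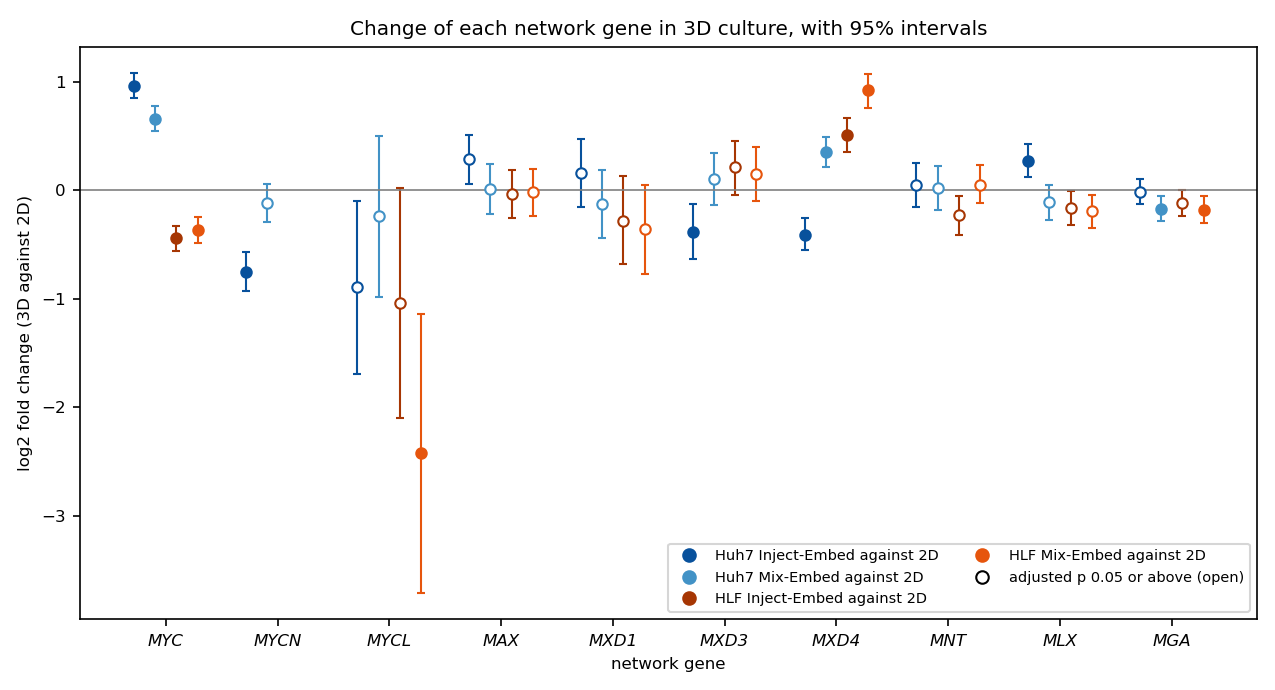
Log2 fold change against 2D (vertical axis) of each of the 10 genes in Huh7 and HLF Inject-Embed and Mix-Embed, with bars for the 95% interval and filled points where the adjusted p is under 0.05. MYC lies above 0 in Huh7 and below 0 in HLF, MXD4 lies below 0 only in Huh7 Inject-Embed, and MYCN has no points for HLF, where it was not tested.

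Counted over the members, Huh7 Inject-Embed called 5 of 10 against 2D, MYC and MLX up and MYCN, MXD3 and MXD4 down, where 29.9% of all genes tested were called. Huh7 Mix-Embed called 3 of 10 against 2D (MYC and MXD4 up, MGA down), with 21.7% of all genes. In HLF, Inject-Embed called 2 of 9 tested members (MXD4 up, MYC down), with 17.9% of all genes, and Mix-Embed called 4 of 9 (MXD4 up, MYC, MYCL and MGA down), with 29% of all genes. Between the 3D cultures, 5 of 10 members were called in Huh7 (22.9% of all genes) and 2 of 9 in HLF (8.27%). These shares rest on 9 or 10 genes and are read here only beside the background. Between the lines, 8 of 9 members were called in 2D, 7 in Inject-Embed and 8 in Mix-Embed, leaving out MYCN, which passed the filter through Huh7 alone, where 77.2%, 77.1% and 76.9% of all genes were called. The difference between the lines in the change was called for 4 of 9 members for Inject-Embed against 2D (24.8% of all genes), 3 for Mix-Embed against 2D (20.4%) and 4 for Inject-Embed against Mix-Embed (10.6%).

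Set beside each other per length, in FPKM, the activating arm outweighed the repressing arm at the RNA level in all groups, though not in CPM. MYC had the highest FPKM of the 10 genes in each group, 29.7 in Huh7 2D, 59.3 in Huh7 Inject-Embed, 46.7 in Huh7 Mix-Embed, 40.0 in HLF 2D, 30.3 in HLF Inject-Embed and 32.2 in HLF Mix-Embed. MYCN was second in Huh7, at 27.1, 16.5 and 24.8 FPKM in 2D, Inject-Embed and Mix-Embed, so that it made up 48.4 and 46.1% of the MYC family sum in 2D and 22.1 and 21.2% in Inject-Embed. MAX was at 4.39 to 5.49 FPKM in every group, well below the sum of its partners.

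The 3 MYC genes together stood at 57.4 ± 1.87 FPKM in Huh7 2D (SD, n = 2), 76.1 ± 2.72 in Inject-Embed and 72.0 ± 2.54 in Mix-Embed, so that the fall of MYCN offset part of the rise of MYC. In HLF the sum was 40.2 ± 1.37, 30.4 ± 0.817 and 32.2 ± 1.02 FPKM in the same order. MXD1, MXD3, MXD4 and MNT together stood at 24.9 ± 1.66, 20.8 ± 1.07 and 29.2 ± 1.65 FPKM in Huh7 and at 15.9 ± 0.314, 19.1 ± 0.961 and 23.4 ± 2.19 in HLF. The MYC family was 70.3 and 69.3% of both sums in Huh7 2D and 72.4 and 70.8% in HLF 2D, so that both HLF libraries were slightly above both Huh7 libraries. In 3D the order was the reverse and the gap wider, with 78.4 and 78.8% in Huh7 Inject-Embed and 71.5 and 70.8% in Huh7 Mix-Embed, against 62.7 and 60.1% and 59.0 and 56.9% in the same cultures of HLF. These shares describe RNA per length and carry no test, and both their size and which arm is larger depend on the unit. In CPM they were 48.7, 60.7 and 50.7% in Huh7 2D, Inject-Embed and Mix-Embed and 51.6, 40.6 and 36.8% in HLF. The MYC family was thus the smaller sum in that unit in Huh7 2D and in both 3D cultures of HLF.

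**Figure D3:**
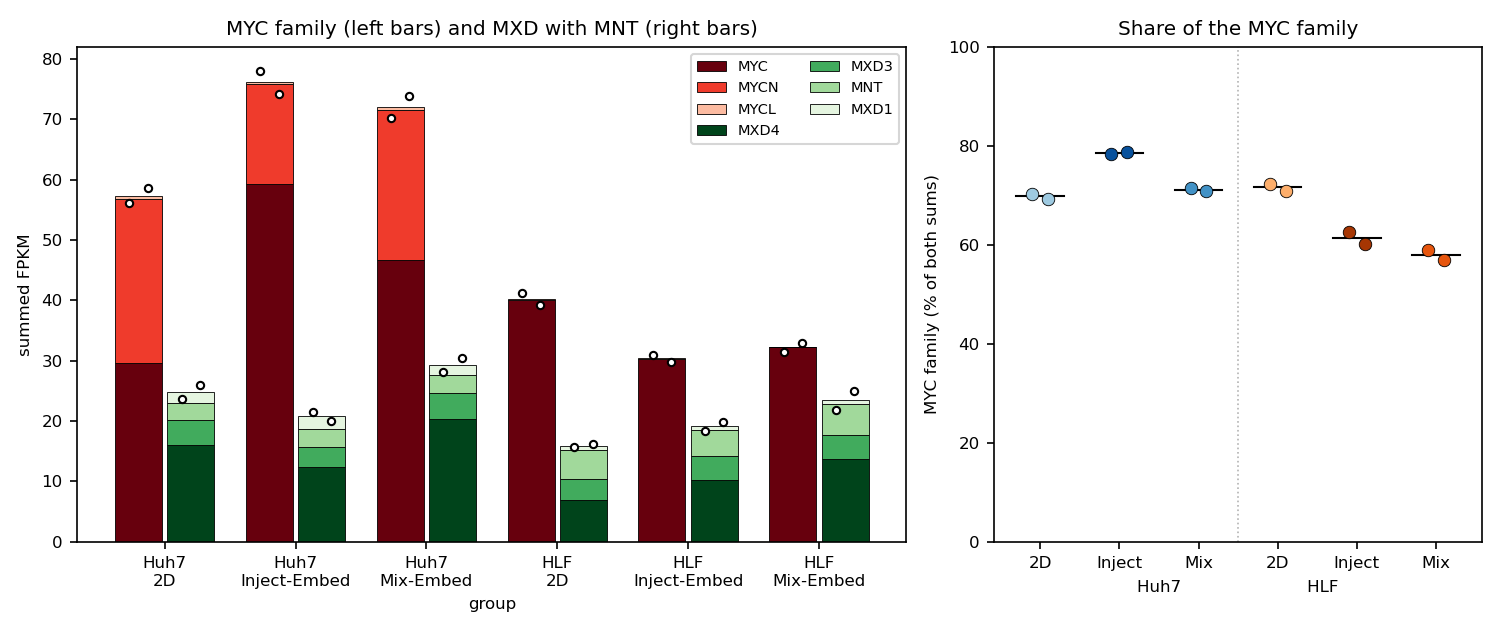
Left, summed FPKM (vertical axis, from 0) of MYC, MYCN and MYCL (left bar of each pair) and of MXD4, MXD3, MNT and MXD1 (right bar) in the 6 groups, as stacked group means with white points for the summed value of each library. Right, the MYC family as a percent of both sums, with a point per library and a line at the mean, which is 69.8% in Huh7 and 71.6% in HLF in 2D, and 78.6% and 61.4% in Inject-Embed.

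The ratio of the leading genes of the arms differed most between the lines in 2D. MYC over MXD4 in FPKM was 1.88 and 1.83 in Huh7 2D, 4.75 and 4.86 in Inject-Embed and 2.37 and 2.25 in Mix-Embed. In HLF it was 5.93 and 5.56 in 2D, 3.22 and 2.74 in Inject-Embed and 2.56 and 2.19 in Mix-Embed. HLF was the higher line in 2D and Huh7 in Inject-Embed, without overlap, and the lines overlapped in Mix-Embed.

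Relatives of the members were listed separately. Of 8 (MXI1, MLXIP, MLXIPL, USF1, USF2, TFE3, TFEB and MITF), 1 rose and 1 fell in Huh7 Inject-Embed against 2D, 2 rose in Huh7 Mix-Embed, 2 rose and 2 fell in HLF Inject-Embed and 2 fell in HLF Mix-Embed. The background over all genes, for these and the lists that follow, was 13.2% higher and 16.7% lower in Inject-Embed and 11.2% higher and 10.6% lower in Mix-Embed for Huh7, and 9.09% higher and 8.86% lower in Inject-Embed and 14.4% higher and 14.6% lower in Mix-Embed for HLF. A count of 1 among 8 genes is near it, and the 2 risers in HLF Inject-Embed were 0 by DESeq2 and by limma on log2(FPKM + 1). The lists and this background were not matched for level, and the background depends on the filter on low counts. With a minimum count of 50, 2473 of 14080 genes were higher and 3213 lower in Huh7 Inject-Embed, against 2552 and 3225 of 19342. MXI1, the remaining MXD gene, stood at 17.5 and 12.8 CPM in Huh7 Inject-Embed against 27.4 and 26.7 in 2D (log2 fold change -0.83 ± 0.13, adjusted p = 1.58e-06), and at 16.6 and 17.2 CPM in HLF Inject-Embed against 12.8 and 13.5 (0.37 ± 0.13, adjusted p = 0.0471). The HLF value was not called without any 1 of the 4 libraries compared (adjusted p from 0.114 to 0.242) or either Huh7 Mix-Embed replicate (0.0569 and 0.0578), nor by DESeq2 (0.0939), RLE scaling (0.0506), limma (0.0738 and 0.0826), the fit with no filter (0.0787) or that with a replicate block (0.0502). MLXIP, which encodes MondoA, rose by 0.28 ± 0.08 in Huh7 Inject-Embed (adjusted p = 0.00508) and fell in HLF, by 0.28 ± 0.07 in Inject-Embed (log2 fold change -0.28, adjusted p = 0.002) and by 0.31 ± 0.07 in Mix-Embed (log2 fold change -0.31, adjusted p = 0.000428). Its rise was 0.17 without Huh7 2D replicate 1 (adjusted p = 0.166), its falls were -0.18 and -0.20 without HLF 2D replicate 2 (0.177 and 0.0866), limma lost both falls (0.0753 to 0.146), and the Inject-Embed fall was also lost without HLF Inject-Embed replicate 2 (0.0728). MLXIPL, which encodes ChREBP, rose by 0.63 ± 0.11 in Huh7 Mix-Embed (adjusted p = 1.26e-05) and had at most 2 counts in any HLF group.

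The cofactors called were mostly higher in Huh7 Inject-Embed and lower in HLF Mix-Embed. Of 18 cofactors of MYC and MXD proteins, 8 rose and 3 fell in Huh7 Inject-Embed (median log2 fold change 0.14, against -0.01 over all genes, of which 13.2% were higher and 16.7% lower), 2 rose and 3 fell in Huh7 Mix-Embed, 4 fell in HLF Inject-Embed and 1 rose and 10 fell in HLF Mix-Embed (median -0.17, against 0.00 over all genes, of which 14.4% were higher and 14.6% lower). The 8 were 4 without Huh7 2D replicate 1 and the 10 were 5 without HLF Mix-Embed replicate 1, 5 under library totals alone and 4 by limma. KAT2A, the histone acetyltransferase that MYC recruits, rose by 0.58 ± 0.07 in Huh7 Inject-Embed (adjusted p = 2.12e-09), and TRRAP, the scaffold of that complex, fell by 0.33 ± 0.05 (log2 fold change -0.33, adjusted p = 3.81e-07). In HLF Mix-Embed RUVBL1 and RUVBL2, the helicases of several MYC-bound complexes, fell by 0.37 ± 0.06 and 0.35 ± 0.05 (log2 fold changes -0.37 and -0.35, adjusted p = 4.26e-06 and 1.5e-06).

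Genes that set MYC protein stability or the MYC transcript were followed as separate lists. Of 16 genes of MYC protein turnover, 5 rose and 3 fell in Huh7 Inject-Embed, 4 fell in Huh7 Mix-Embed, 4 fell in HLF Inject-Embed and 1 rose and 5 fell in HLF Mix-Embed. The 3 fallers of 16 stand near the 16.7% of all genes that were lower in Huh7 Inject-Embed, and the 5 risers stand against 13.2%. Fallers in the other comparisons stand against 10.6%, 8.86% and 14.6% of all genes. Counts this small fell to between 2 and 3 without single libraries: the 5 risers without Huh7 Inject-Embed replicate 1, the 4 fallers in Huh7 without 2D replicate 1 or Mix-Embed replicate 2, the 4 in HLF Inject-Embed without HLF 2D replicate 2 or Inject-Embed replicate 1, and the 5 in HLF Mix-Embed without its replicate 1, under library totals alone or by limma. GSK3B, the kinase that marks MYC for degradation, fell by 0.31 ± 0.06 in Huh7 Inject-Embed (log2 fold change -0.31, adjusted p = 7.13e-05) and by 0.30 ± 0.06 in Huh7 Mix-Embed (log2 fold change -0.30, adjusted p = 0.0002). AURKA, a kinase that shields MYCN from degradation, fell by 0.37 ± 0.05 in HLF Mix-Embed (log2 fold change -0.37, adjusted p = 9.23e-08). Of 14 regulators of the MYC transcript, 5 rose and 5 fell in Huh7 Inject-Embed, 2 rose and 5 fell in Huh7 Mix-Embed, 3 fell in HLF Inject-Embed and 7 fell in HLF Mix-Embed. Over all genes 13.2% rose and 16.7% fell, 11.2% rose and 10.6% fell, 8.86% fell and 14.6% fell in the same order. The 7 were 3 under library totals alone, 2 by limma and 2 to 4 in the fits without any 1 of the 6 HLF libraries, and the 5 risers and the 5 fallers in Huh7 Mix-Embed were 3 without Huh7 2D replicate 1, as were the risers without 2D replicate 2 and those fallers without Mix-Embed replicate 2. CNBP, a zinc finger protein that binds the MYC promoter, rose by 0.30 ± 0.04 and 0.20 ± 0.04 in Huh7 Inject-Embed and Mix-Embed (adjusted p = 4.11e-07 and 0.000373), and IGF2BP1, which stabilises the MYC transcript, fell by 0.36 ± 0.04 and 0.38 ± 0.04 in the same cultures of HLF (log2 fold changes -0.36 and -0.38, adjusted p = 2.1e-08 and 2.88e-09). Other regulators fell in Huh7, where MYC rose: among them TCF7L2, IGF2BP2 and CTNNB1 in Inject-Embed and IGF2BP3, IGF2BP2 and FUBP1 in Mix-Embed. PVT1, the non-coding neighbour of MYC, had 57 against 36 counts in Huh7 Inject-Embed and 2D (0.91 ± 0.34, adjusted p = 0.0383, but not called without either Huh7 2D replicate (0.194 and 0.0529) or Huh7 Inject-Embed replicate 1 (0.424), nor by limma, with no filter or in Huh7 alone) and 386 against 421 in the same groups of HLF (-0.09 ± 0.17, adjusted p = 0.789).

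Most genes listed as activated by MYC rose in Huh7 Inject-Embed and fell in both HLF 3D cultures. Of 34 such genes, all tested, 23 rose and 3 fell in Huh7 Inject-Embed against 2D, with a median log2 fold change of 0.23 against -0.01 over all genes, where 13.2% of all genes rose and 16.7% fell. In HLF 1 rose and 18 fell in Inject-Embed (median -0.20 against 0.00, with 9.09% of all genes higher and 8.86% lower), and 2 rose and 28 fell in Mix-Embed (median -0.33 against 0.00, with 14.4% higher and 14.6% lower). Scaled by library totals alone, the fallers were 13 and 26, and higher genes were 63.3 and 62.4% of all genes called, against 50.6 and 49.8% with TMM. Limma on log2(FPKM + 1) gave 11 and 23. Over all alternatives the fallers were 10 to 20 and 22 to 28.

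In Huh7 Mix-Embed, where MYC rose by 0.66, 5 of the 34 rose and 10 fell against 2D, with a median of -0.06 against 0.00 and with 11.2% of all genes higher and 10.6% lower. The fallers were 6 without Huh7 2D replicate 1 and 4 without Huh7 Mix-Embed replicate 2. The 5 that rose were APEX1, IMPDH2, UBTF, NPM1 and LDHA. In Huh7 Inject-Embed against Mix-Embed, 19 rose and 3 fell, with a median of 0.31 against -0.03 over all genes, where 9.55% were higher and 13.4% lower. In HLF Inject-Embed against Mix-Embed, 15 rose and 1 fell (median 0.14 against 0.00, with 3.56% higher and 4.71% lower), and the 15 were 8 without HLF Inject-Embed replicate 2 and 9 without HLF Mix-Embed replicate 2.

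Sizes ranged widely. SRM, the spermidine synthase gene, stood at 188 and 174 CPM in Huh7 Inject-Embed against 103 and 113 in 2D (0.74 ± 0.06, adjusted p = 1.52e-13), and at 113 and 110 CPM in Huh7 Mix-Embed. NCL, which encodes the nucleolar protein nucleolin, stood at 1250 and 1250 CPM against 1130 and 1140 in the same Inject-Embed comparison (0.13 ± 0.04, adjusted p = 0.00393), and at 1200 and 1200 CPM in HLF Mix-Embed against 1580 and 1610 in HLF 2D (-0.41 ± 0.04, adjusted p = 1.75e-12). SLC7A5, a leucine transporter gene with the E-box shown above, was the largest faller in HLF, from 200 and 210 CPM in 2D to 76.8 and 71.8 in Inject-Embed (-1.46 ± 0.06, adjusted p = 3.78e-24) and 52.3 and 56.3 in Mix-Embed (-1.91 ± 0.06, adjusted p = 3.69e-28).

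TFRC, the transferrin receptor gene, and LDHA, the lactate dehydrogenase gene, were among the 3 fallers of the list in Huh7 Inject-Embed. TFRC fell in all 4 comparisons with 2D, by 0.89 ± 0.05 in Huh7 Inject-Embed and 0.76 ± 0.05 in HLF Mix-Embed (log2 fold changes -0.89 and -0.76, adjusted p = 2.98e-20 and 1.86e-17). LDHA fell by 0.64 ± 0.04 in Huh7 Inject-Embed (log2 fold change -0.64, adjusted p = 3.45e-18) and rose by 0.33 ± 0.04 in HLF Inject-Embed (adjusted p = 1.3e-09). The third faller in Huh7 Inject-Embed was SHMT2 (log2 fold change -0.14, adjusted p = 0.0274), a call lost by limma, under library totals alone (adjusted p = 0.103) and without several single libraries, such as Huh7 2D replicate 2 (-0.08, adjusted p = 0.307) or Huh7 Inject-Embed replicate 2 (adjusted p = 0.246), and EIF4A1, which rose beside LDHA in HLF Mix-Embed, overlaps the read-through gene SENP3-EIF4A1 and is uncertain.

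Tested in the same model, the change in Inject-Embed against 2D was higher in Huh7 than in HLF for 25 of the 34 genes and lower for 2, where 11.7% of all genes were higher and 13.1% lower. In Mix-Embed it was higher for 20 and lower for 1, with 10.2% of all genes in each direction. In Inject-Embed 13 genes rose in Huh7 and fell in HLF: AMD1, CAD, DKC1, HSPD1, HSPE1, NCL, NME1, NOP16, NOP56, NPM1, PA2G4, POLR1B and SLC7A5. In Mix-Embed 3 did so, APEX1, IMPDH2 and NPM1. Markers of dividing cells moved with these counts in part: all 6 fell in HLF Mix-Embed, 3 fell in HLF Inject-Embed, and in Huh7 1 rose and 1 fell in Inject-Embed and 1 rose and 3 fell in Mix-Embed. They summed to between 2340 and 2390 CPM in Huh7 2D, 2260 and 2290 in Inject-Embed and 2200 and 2250 in Mix-Embed. In HLF they summed to between 2740 and 2800, 2620 and 2640, and 2330 and 2360 CPM. The part of division in the changes of the list was not tested.

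**Figure D4:**
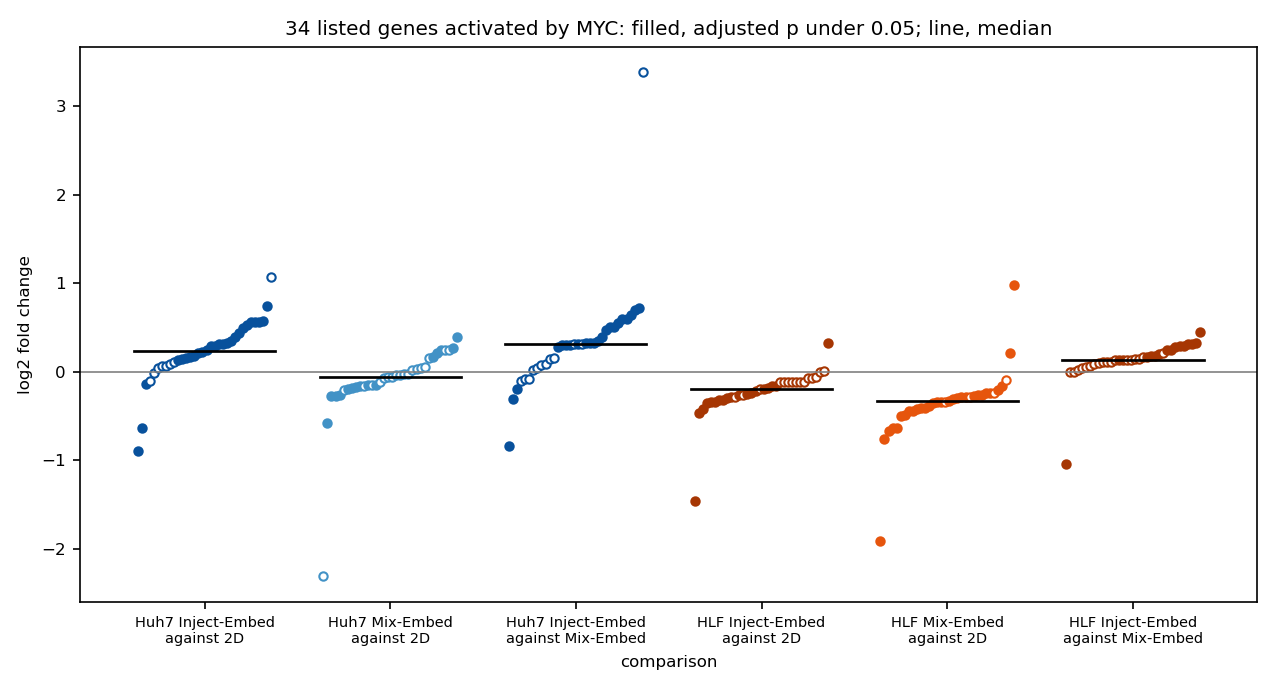
Log2 fold change (vertical axis) of the 34 listed genes activated by MYC in the 6 comparisons of cultures within a line, each gene a point, filled where the adjusted p is under 0.05, with a line at the median. The median is above 0 in Huh7 Inject-Embed against 2D (0.23) and against Mix-Embed (0.31), near 0 in Huh7 Mix-Embed against 2D (-0.06) and below 0 in HLF Inject-Embed (-0.20) and Mix-Embed (-0.33) against 2D.

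Listed genes with and without the E-box were set side by side, with no test of the difference. In Huh7 Inject-Embed, 10 of 16 listed genes with CACGTG in the promoter window rose and 1 fell (median 0.27), and of 14 without it 12 rose and 1 fell (median 0.26). In Huh7 Mix-Embed, 2 rose and 4 fell with it (median -0.04) and 2 rose and 6 fell without it (median -0.14). In HLF Inject-Embed, 1 rose and 7 fell with it (median -0.14) and 10 fell without it (median -0.24). In HLF Mix-Embed, 1 rose and 14 fell with it (median -0.32) and 1 rose and 12 fell without it (median -0.37). Over all tested genes with a window, 20.6% of 1522 with the sequence and 15.1% of 11312 without it rose in Huh7 Inject-Embed. In Huh7 Mix-Embed, where MYC also rose, 13.8% with it and 12.4% without it rose, and 14.1% and 12.6% fell. In HLF Inject-Embed, 10.2% and 10.5% rose and 15% and 9.93% fell. In HLF Mix-Embed, 16.6% and 16.1% rose and 22.3% and 16.6% fell. Medians with the sequence were 0 in both Huh7 comparisons and -0.03 in both HLF comparisons. These values are a description with no test, since genes with and without the sequence also differ in other ways.

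Genes listed as repressed by MYC had more risers than fallers in each comparison with 2D. Of 10, 6 rose and 3 fell in Huh7 Inject-Embed, 6 rose and 1 fell in Huh7 Mix-Embed, 3 rose in HLF Inject-Embed and 7 rose and 2 fell in HLF Mix-Embed, where 4 rose without HLF 2D replicate 1 and 3 without HLF Mix-Embed replicate 2. Over all genes 13.2% rose and 16.7% fell, 11.2% and 10.6%, 9.09% and 8.86%, and 14.4% and 14.6% in the same order. CDKN1A, which encodes the cell cycle inhibitor p21, stood at 6.43 and 5.7 CPM in Huh7 Inject-Embed and 6.89 and 6.69 in Mix-Embed against 3.47 and 3.97 in 2D, and at 28.1 and 29.4 CPM in HLF Mix-Embed against 12.8 and 14.1 (1.10 ± 0.13, adjusted p = 2.71e-09). THBS1, which encodes the angiogenesis inhibitor thrombospondin, went from 38.5 and 36.7 CPM in Huh7 2D to 10.8 and 7.99 in Inject-Embed (-1.99 ± 0.11, adjusted p = 1.65e-19) and rose by 0.31 ± 0.06 in HLF Mix-Embed (adjusted p = 1.92e-05, and 0.0919 by limma on log2(FPKM + 0.1)). NDRG1 moved one way in Inject-Embed and the other in Mix-Embed in each line, with -0.22 ± 0.05 and 0.77 ± 0.05 in Huh7 and 0.29 ± 0.08 and -0.43 ± 0.09 in HLF (adjusted p from 1.45e-16 to 0.00712). Its HLF Inject-Embed value was 0.18 without HLF Inject-Embed replicate 1 and 0.22 without HLF 2D replicate 2, and the call was lost in both fits. Limma on the deposited FPKM did not call its Huh7 Inject-Embed value (adjusted p = 0.0567 and 0.114). The Inject-Embed calls of NDRG1, though not their signs, thus depended on single libraries in HLF and on the fit in Huh7.

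Targets of MLX with MondoA or ChREBP were led by TXNIP, which encodes an inhibitor of glucose uptake and thioredoxin. It stood at 6.66 and 4.44 CPM in Huh7 2D, 14.8 and 16.8 in Inject-Embed and 36.6 and 37.1 in Mix-Embed, and at 20.8 and 16.8, 72.6 and 72.9, and 246 and 222 CPM in HLF. All 4 rises against 2D passed, and the largest was 3.64 ± 0.09 in HLF Mix-Embed (adjusted p = 6.71e-32), where MLX itself did not rise. Its paralogue ARRDC4 rose by 1.96 ± 0.19 in HLF Mix-Embed (adjusted p = 2.38e-11) and had at most 2 counts in any Huh7 group. Of the 11 genes listed, 9 were tested, and 3 rose and 4 fell in Huh7 Inject-Embed, 5 rose and 1 fell in Huh7 Mix-Embed, 1 rose and 1 fell in HLF Inject-Embed and 4 rose and 2 fell in HLF Mix-Embed. Over all genes 13.2% rose and 16.7% fell, 11.2% and 10.6%, 9.09% and 8.86%, and 14.4% and 14.6% in the same order, so that the HLF Inject-Embed counts stand at the background. The 4 fallers in Huh7 Inject-Embed were 2 without its replicate 2 or by limma on log2(FPKM + 1), and the 5 risers in Huh7 Mix-Embed were 3 without Huh7 2D replicate 2 or by that limma fit. FASN, the fatty acid synthase gene, was the faller in HLF Inject-Embed (-0.53 ± 0.04, adjusted p = 1.19e-14).

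Of 14 partners of MGA in PRC1.6, 3 rose and 1 fell in Huh7 Inject-Embed, 1 rose and 3 fell in Huh7 Mix-Embed, 1 rose and 2 fell in HLF Inject-Embed and 3 rose and 6 fell in HLF Mix-Embed, where 3 fell without HLF 2D replicate 1, 3 under library totals alone and 2 by limma on log2(FPKM + 1). Over all genes 13.2% rose and 16.7% fell, 11.2% and 10.6%, 9.09% and 8.86%, and 14.4% and 14.6% in the same order, so that 1 or 2 of 14 is near the background. E2F6, a DNA-binding subunit, fell by 0.43 ± 0.12 in Huh7 Inject-Embed (log2 fold change -0.43, adjusted p = 0.00484, but -0.23 with 0.255 without Huh7 2D replicate 2), and CBX3, a chromodomain protein, fell by 0.32 ± 0.05 in HLF Mix-Embed (log2 fold change -0.32, adjusted p = 9.95e-07). Of 15 germline genes that PRC1.6 is known to silence, 7 passed the filter on low counts, and at most 1 was called in either direction in a comparison with 2D. SMC1B, a meiotic cohesin gene, passed in both Huh7 cultures (1.02 ± 0.36 and 1.52 ± 0.35, adjusted p = 0.0274 and 0.000877), but not by DESeq2 (0.645 and 0.484) or limma on log2(FPKM + 0.1) (0.148 and 0.065), nor, in Inject-Embed, without Huh7 2D replicate 2 (0.127) or either Inject-Embed replicate (0.062 and 0.105). TDRKH differed by -0.65 ± 0.17 in Huh7 Inject-Embed (adjusted p = 0.00312, and -0.40 with 0.178 without Huh7 Inject-Embed replicate 1). MEI1 had 9 counts in HLF 2D and 43 in HLF Mix-Embed (2.24 ± 0.71, adjusted p = 0.0126), and it was not called by DESeq2 (0.0532), without HLF 2D replicate 1 (0.187) or without HLF Mix-Embed replicate 2 (0.0787).

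Some genes shared the profile of MYC or of MXD4 over the 12 libraries. After each line's mean was subtracted from log2 CPM, the 5 of 9978 protein-coding genes most like MYC were NUAK2 (Pearson r = 0.979), POLDIP3 (0.975), AIFM2 (0.973), LASP1 (0.971) and CNBP (0.966). NUAK2, a kinase gene, had 1.81, 4.11 and 3.64 CPM in Huh7 2D, Inject-Embed and Mix-Embed and 43.9, 30.7 and 33.5 CPM in HLF. The 5 genes most like MXD4 were MINK1 (0.981), BAHCC1 (0.969), POFUT2 (0.969), PLA2G6 (0.967) and SLC2A1 (0.961), the last of which encodes the glucose transporter GLUT1 and had 154, 117 and 200 CPM in Huh7 and 65.5, 89.4 and 102 CPM in HLF. Among the members with a mean of at least 10 CPM, which leaves out MXD1 and MYCL, MLX ran most against MXD4 (r = -0.858). MYCN ran most against MYC (r = -0.727, with HLF at 0). These values describe 12 libraries in 6 groups, so that points share a group, and they carry no test.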

How the data were processed

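For the 12 libraries the authors deposited unnormalised gene counts and, in a second table, FPKM. FastQC, Trimmomatic, STAR 2.7.9a and featureCounts with GRCh38 are named per the submitters' processing notes. Settings, strand mode and gene annotation are named nowhere in the labels used here. The deposited FPKM equalled count, gene length and library total combined, to a relative 1e-06 in all 167453 values checked, those with at least 20 counts. Of 58735 gene IDs, 58207 were matched to symbols, and no column or row was left out.

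Counts were tested with edgeR 4.0.16 (R 4.3.3) on all 12 libraries with a mean per group, TMM scaling and filterByExpr at a minimum count of 10. The quasi-likelihood test had 6 residual and 36.3 prior degrees of freedom. The 95% intervals use normal quantiles. A ratio against a group without counts used a floor of 3 counts over the group. Alternatives were DESeq2 1.42.0, 2 other scalings, 2 other filters, limma 3.58.1 on log2 of the deposited FPKM with a pseudocount of 1 or 0.1, each line alone, a replicate block and 12 fits without 1 library. The fit was tested on simulated data. Other steps used python 3.11.15 with pandas 2.3.3, numpy 2.4.6 and, for figures, matplotlib 3.10.9.

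The members and lists were chosen with earlier results of these data known. The members are all named, though not each in every comparison: differences between the lines in the levels of MYCL, MXD3 and MLX enter only as counts. The other named genes are the 5 genes most like MYC and MXD4, and a part of the genes that a rule took from each list. That rule took up to 3 called genes at either end of a list with at least 10 CPM and replicates apart. Many of the genes it took are not named here. Values of NCL, PVT1, SMC1B, TDRKH, MEI1, and of CDKN1A in Huh7, and genes named to spell out a count or a shown sequence, fall outside this rule and were chosen after the values were seen. Levels in CPM used library totals scaled by TMM.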

Additional observations from a re-analysis of the deposited data

Results flagged for a closer look

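For 11 results the change between cultures differed between the lines by the test of the difference itself (edgeR, adjusted p under 0.05), which was computed as the Huh7 log2 fold change minus the HLF log2 fold change. For Inject-Embed against 2D, MYC had a difference of 1.41 ± 0.08 (adjusted p = 2.02e-17), MLX of 0.44 ± 0.11 (adjusted p = 0.00271), MXD3 of -0.58 ± 0.18 (adjusted p = 0.0126) and MXD4 of -0.92 ± 0.11 (adjusted p = 1.07e-08). The MXD3 call was lost without Huh7 2D replicate 2, HLF 2D replicate 1 or Huh7 Inject-Embed replicate 2 (adjusted p = 0.0744, 0.0774 and 0.096). MYC and MXD4 each moved past the threshold in both lines, in opposite directions.

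For Mix-Embed against 2D, the differences were 1.04 ± 0.09 for MYC (adjusted p = 4.27e-13), 2.19 ± 0.77 for MYCL (adjusted p = 0.0371) and -0.57 ± 0.11 for MXD4 (adjusted p = 7.53e-05). MXD4 rose in both lines here, by more in HLF. The MYCL value rests on 6 counts in HLF Mix-Embed and was not called without Huh7 replicate 1 of either culture, HLF 2D replicate 2 or either HLF Mix-Embed replicate, nor by DESeq2 or limma.

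For Inject-Embed against Mix-Embed, the differences were 0.37 ± 0.08 for MYC (adjusted p = 0.002), 0.35 ± 0.11 for MLX (adjusted p = 0.0391), -0.53 ± 0.18 for MXD3 (adjusted p = 0.0464) and -0.35 ± 0.11 for MXD4 (adjusted p = 0.0259). Of these, the MYC difference was the only one called in all 20 alternatives run. The MLX difference was called in 12 of them, that of MXD4 in 11 and that of MXD3 in 6. MYCN, absent from HLF but for 1 count, was given no such test.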

How the results depend on the processing

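No member or other named gene that was called changed sign under the alternatives. Among 6228 values compared, the sign differed in 66, none of them called under either setting. Of 2323 member values, 2184 kept their side of the threshold, 97 lost a call and 42 gained one. Of 3696 values of other named genes, 330 lost a call, as did 20 of 209 values of genes named after their values were seen. Limma on log2(FPKM + 1) and log2(FPKM + 0.1) called 1 member each in Huh7 Mix-Embed against 2D (3 in edgeR) and 0 each in HLF Inject-Embed against Mix-Embed (2 in edgeR), where DESeq2 and the fit with no filter each called 1. Limma on log2(FPKM + 1) called 2 in HLF Mix-Embed against 2D (4 in edgeR). For the line difference in Inject-Embed against Mix-Embed (4 in edgeR), DESeq2 called 1 and library totals, no filter and both limma fits called 2. Over all genes, HLF Inject-Embed against Mix-Embed fell from 1600 calls to 982 and 670 by limma. Fits without 1 library gave 2 to 3 members and 2696 (without Huh7 Mix-Embed replicate 2) to 4208 genes in Huh7 Mix-Embed against 2D, 2 to 4 members in HLF Mix-Embed against 2D, 2247 to 3773 genes in HLF Inject-Embed against 2D (2247 to 2294 without any 1 of its 4 libraries), 1 to 2 members and 766 to 1861 genes in HLF Inject-Embed against Mix-Embed (766 to 1046 without any 1 of its 4 libraries), and 1 to 4 members for the last line difference. A group left with 1 library was assumed to vary like the others.

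The MYC family share moved from 69.8, 78.6 and 71.1% in Huh7 and 71.6, 61.4 and 57.9% in HLF to 48.7, 60.7, 50.7, 51.6, 40.6 and 36.8% in CPM, and to 65.4, 76.1, 67.2, 68.0, 56.9 and 54.3% with MXI1 added. Leaving out a replicate, a choice made after the data were seen as were the alternatives for gene lists and for those last genes, gave 69.3 to 70.3, 78.4 to 78.8, 70.8 to 71.5, 70.8 to 72.4, 60.1 to 62.7 and 56.9 to 59.0%.

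Replicate numbers did not pair the samples: deviations of same-numbered libraries correlated by -0.024 to 0.022 over 15 pairs of groups. With the replicate block, 5, 3 and 5 members were called in the Huh7 comparisons and 2, 4 and 2 in HLF, as without it, and 5757 genes in Huh7 Inject-Embed against 2D. Library totals alone shifted the median of Huh7 against HLF by -0.16 in 2D, -0.16 in Inject-Embed and -0.23 in Mix-Embed, and lowered the higher share of calls for the line difference in Mix-Embed against 2D from 49.9 to 37.1% and raised it from 43.7 to 61.2% for that in Inject-Embed against Mix-Embed and from 41.7 to 52.9% for Huh7 Inject-Embed against Mix-Embed. MYCL, with 2 to 51 counts in a library, is limited by depth.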
